A study of Homo sapiens with 6 samples.

Results

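The 10 genes described here are the VGLL cofactors VGLL3 and VGLL4, the TEAD transcription factors TEAD1, TEAD2, TEAD3 and TEAD4, the coactivators YAP1 and WWTR1, and the kinases LATS1 and LATS2. They are 10 of 27257 genes with a value in any library, and all 10 were among the 16092 genes tested. The set was chosen by comparing LMO2 with control libraries and asking whether VGLL3 changed alone, so the change of VGLL3 is a description of the values that selected it. RNA-seq was performed on U87MG, an established human line derived from a malignant glioma. U87MG-control cells were infected with a control lentivirus and U87MG-LMO2 cells with an LMO2 lentivirus, both for 24 hours, with 3 libraries in each group. The study examined how expression changes when LMO2, a LIM-domain adaptor protein, is overexpressed. Nothing in the labels says that the libraries came from separate cultures or names a batch, so the tests measure the spread between these libraries, which may be technical. All cells carried a lentivirus, and the libraries hold whole cultures, so more RNA per cell and more cells of one kind cannot be told apart.

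TEAD proteins bind DNA but need a cofactor to act on transcription. The coactivators YAP and TAZ, the latter encoded by WWTR1, are the best known of these cofactors, and the Hippo kinase cascade holds them back: MST kinases activate LATS kinases, and LATS phosphorylates YAP and TAZ so that they stay out of the nucleus. Vestigial-like (VGLL) proteins bind TEAD through a short Tondu motif, and VGLL4 competes with YAP for TEAD as a repressor. VGLL3 is a cofactor of the same family. Much of this control acts on protein phosphorylation and location, which RNA-seq does not measure.

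Levels are given as normalised read counts (CPM, scaled to library size) when libraries are compared, and as FPKM, which is also scaled to gene length, when genes are compared. Total expected counts were 11428432 to 13537284 per library in U87MG-control and 14630627 to 17892955 in U87MG-LMO2, with no overlap in depth. The counts of the 10 genes ran from 221 to 2889 in a library. LMO2 (4005) itself had 7, 11 and 5 counts in U87MG-control and 5459, 4503 and 14570 counts in U87MG-LMO2. Of the glial markers, S100B, AQP4 and SOX2 had at most 4 counts in any library, whereas SLC1A3 was at 4.96 to 10.56 FPKM and NES at 6.64 to 8.71 FPKM. All 5 mesenchymal markers were above 1 FPKM in every library. GFAP was left out because of damaged lines, and OLIG2 was at 0.16 to 0.42 FPKM. Without GFAP, the summed FPKM of the glial list was 15.6 to 19.7 in U87MG-control and 13.1 to 14.8 in U87MG-LMO2. Nearly all of that sum was SLC1A3 and NES, and its part in the results was not tested. The endothelial and epithelial lists summed to at most 1.19 FPKM. The neuron list summed to 12.6 to 16.1 FPKM, nearly all of it SNAP25 (12.05 to 15.59 FPKM). The immune list summed to 157.4 to 283.7 FPKM, nearly all of it CD68, with PTPRC at 10 counts or fewer. In pairwise comparisons of counts within U87MG-LMO2, replicate 3 stood apart: chi-square per degree of freedom was 37.6 and 51.5 against replicates 1 and 2, and 7.64 between those. Within U87MG-control, replicate 1 gave 10.6 and 10.0 against the others, and 2.25 was found between those.

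VGLL3 (389136) lies at chr3:86876388-86991119 on the minus strand of GRCh38 (GENCODE v29), and no exon of another gene overlaps its exons. It had 221, 259 and 265 expected counts in U87MG-control and 927, 857 and 1030 in U87MG-LMO2. Scaled to library size these were 19.2, 18.9 and 20.1 CPM in U87MG-control and 56.5, 58.4 and 62.1 CPM in U87MG-LMO2. The 3 libraries of each group lay close together and the groups were far apart: the lowest U87MG-LMO2 value was 2.82 times the highest control value. The mean went from 19.4 ± 0.597 to 59.0 ± 2.80 CPM (SD, n = 3), a 3.04-fold change with a 95% interval of 2.59 to 3.58. On the log2 scale this was 1.61 with an SE of 0.10.

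The edgeR quasi-likelihood test called VGLL3 higher, where 4.72% of all 16092 tested genes were called higher and 2.75% were called lower. VGLL3 was the one gene of the 10 that was called, and none was called lower. In either direction 7.48% of all tested genes were called. Among the 760 genes called higher, VGLL3 ranked 101 by log2 fold change, and among all tested genes it ranked 4 by p. VGLL3 was called in all 14 alternative fits as well, with log2 fold changes from 1.57 without U87MG-LMO2 replicate 3 to 1.79 after a GC-content correction. The call, the ranks and these fits draw on the same libraries that selected VGLL3. They describe its change and are no independent test of it.

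Among the U87MG-LMO2 libraries, the one with the most LMO2 was also the highest in VGLL3, but by a much smaller ratio. U87MG-LMO2 replicate 3 held 877.9 CPM of LMO2, which was 2.64 and 2.86 times the level in replicates 1 and 2. VGLL3 in replicate 3 was 1.10 and 1.06 times its level in those libraries. With 3 libraries no relation between the genes can be tested.

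The per-length values of VGLL3 differed more than its read counts. FPKM was 3.75, 4.21 and 4.22 in U87MG-control and 12.85, 13.58 and 16.15 in U87MG-LMO2, so the ratio of the means was 3.50, against 3.04 for CPM. The deposited tables give each gene a length per library, weighted by the transcripts that its reads were assigned to. For VGLL3 this length was 5091, 4491 and 4745 bases in U87MG-control and 4423, 4270 and 3526 bases in U87MG-LMO2. Every U87MG-LMO2 library had a shorter VGLL3 length than every control library, and replicate 3 had the shortest. Across the 11787 tested genes with more than 1 listed transcript, 7.09% had shorter lengths in all U87MG-LMO2 libraries, and 0.976% had a mean length ratio at or below the 0.853 of VGLL3. The other members had ratios from 0.978 to 1.00, with TEAD1 and TEAD3 listed with 1 transcript each. A length is an estimate from short reads, and which VGLL3 transcripts changed was not tested.

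**Figure D1:**
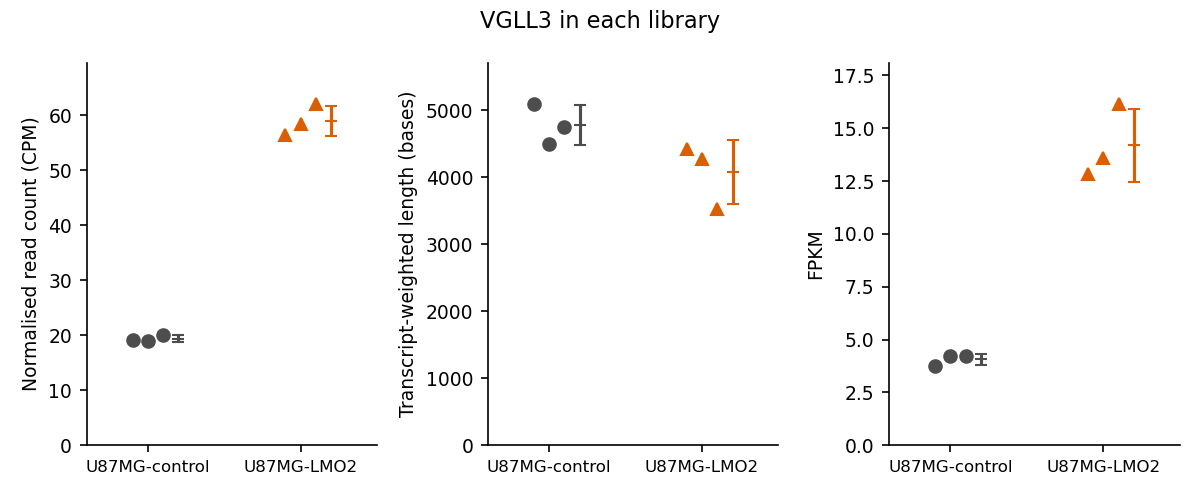
VGLL3 in the 3 U87MG-control libraries (circles) and the 3 U87MG-LMO2 libraries (triangles) as normalised read count in CPM, transcript-weighted length in bases and FPKM, each on an axis from 0, with the mean and SD beside the points. The U87MG-LMO2 libraries sit between 56.5 and 62.1 CPM and the controls between 18.9 and 20.1 CPM, while the U87MG-LMO2 lengths all lie below the control lengths.

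VGLL4 (9686, chr3:11556070-11771350, minus strand), the repressive family member, was 61.3, 62.6 and 64.0 CPM in U87MG-control and 64.5, 67.3 and 78.1 CPM in U87MG-LMO2. The groups did not overlap, but by a narrow margin, and U87MG-LMO2 replicate 3 stood above the rest. The log2 fold change was 0.16 (95% interval -0.08 to 0.40). VGLL4 shares exon sequence on the opposite strand with ATG7, and the sources used here do not state whether strand was used in counting. ATG7 was 66.0 to 71.1 CPM in U87MG-control and 53.9, 51.9 and 80.6 CPM in U87MG-LMO2, also highest in replicate 3, and reads of the overlap cannot be told apart. The other family members were not expressed at a testable level: VGLL1 had no value in any library and VGLL2 at most 1 count. The ratio of VGLL3 to VGLL4 in FPKM was 0.234, 0.256 and 0.250 in U87MG-control and 0.755, 0.772 and 0.860 in U87MG-LMO2.

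All 4 TEAD genes were expressed. TEAD1 (7003, chr11:12674591-12944483, plus strand) was 238.8, 190.2 and 193.5 CPM in U87MG-control and 174.7, 196.9 and 168.5 CPM in U87MG-LMO2. The groups overlapped, U87MG-control replicate 1 was the highest library, and the log2 fold change was -0.20 (95% interval -0.48 to 0.07). Without that library it was -0.093. TEAD2 (8463, chr19:49340595-49362457, minus strand) was 24.5, 20.4 and 22.0 CPM in U87MG-control and 22.6, 15.6 and 21.1 CPM in U87MG-LMO2. Its groups overlapped too, and the log2 fold change was -0.17 (95% interval -0.53 to 0.19). TEAD4 (7004, chr12:2959330-3040673, plus strand) was 33.7, 35.3 and 36.7 CPM in U87MG-control and 32.8, 36.3 and 32.2 CPM in U87MG-LMO2. It was the TEAD gene nearest to 0, at -0.06 (95% interval -0.30 to 0.18).

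TEAD3 (7005, chr6:35473597-35497076, minus strand) had the lowest adjusted p of the 9 genes besides VGLL3 in the test of all 6 libraries. It was 33.7, 28.8 and 27.3 CPM in U87MG-control and 37.1, 36.1 and 41.3 CPM in U87MG-LMO2. The groups did not overlap, and U87MG-control replicate 1 was again the highest control. The log2 fold change was 0.35 (95% interval 0.08 to 0.63), a 1.28-fold difference with an edgeR adjusted p of 0.111. It did not pass the threshold in any of the 14 alternatives, and was 0.16 after the GC-content correction.

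The sum of the 4 TEAD genes was 67.0, 59.1 and 60.5 FPKM in U87MG-control and 61.1, 60.3 and 55.1 FPKM in U87MG-LMO2, and the groups overlapped. TEAD3 made up 16.6%, 16.2% and 15.0% of that sum in U87MG-control and 20.3%, 19.8% and 22.8% in U87MG-LMO2, with no overlap. The shares of TEAD1, TEAD2 and TEAD4 overlapped between the groups, at means of 35.1%, 16.8% and 32.2% in U87MG-control and 31.4%, 15.8% and 31.9% in U87MG-LMO2. These shares are descriptions without a test.

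**Figure D2:**
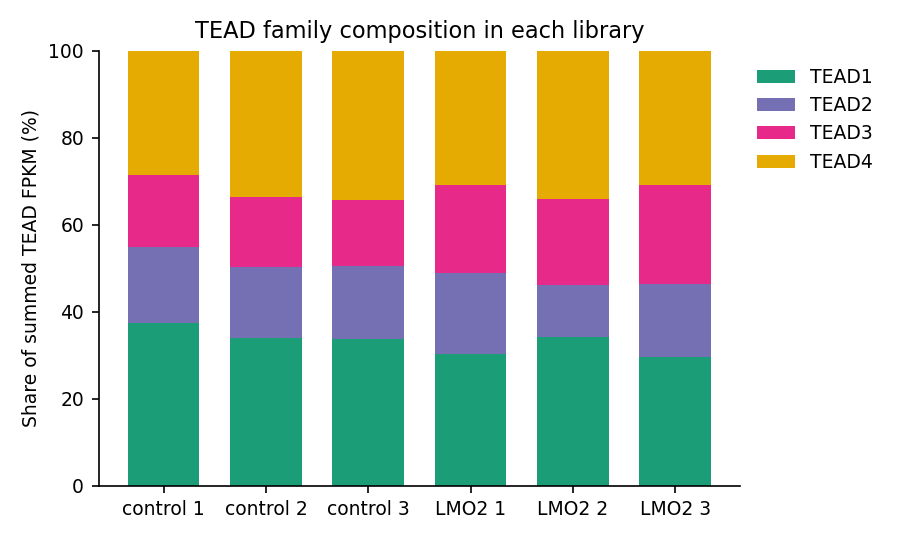
Share of the summed TEAD FPKM (%) taken by TEAD1, TEAD2, TEAD3 and TEAD4 in each of the 6 libraries, as stacked bars from 0. The TEAD3 band is 15.0% to 16.6% in the control libraries and 19.8% to 22.8% in the U87MG-LMO2 libraries.

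YAP1 (10413, chr11:102110461-102233423, plus strand) was 101.5, 103.8 and 108.4 CPM in U87MG-control and 91.3, 90.7 and 96.5 CPM in U87MG-LMO2. Every U87MG-LMO2 library was below every control, by a small amount, with a log2 fold change of -0.17 (95% interval -0.37 to 0.03). WWTR1 (25937, chr3:149517235-149736714, minus strand), which encodes TAZ, was 77.0, 52.6 and 54.3 CPM in U87MG-control and 43.6, 46.6 and 52.4 CPM in U87MG-LMO2. The groups did not overlap, but U87MG-control replicate 1 was far above the other controls. The log2 fold change of -0.37 (SE 0.16, edgeR adjusted p = 0.189) became -0.17 without that library. Exons of WWTR1 overlap the antisense gene WWTR1-AS1, which had at most 2.19 CPM in any library. The sum of YAP1 and WWTR1 was 33.8, 29.5 and 30.6 FPKM in U87MG-control and 25.6, 25.7 and 25.8 FPKM in U87MG-LMO2. The sums did not overlap between the groups, with U87MG-control replicate 1 again the highest, and were not tested. Exons of TEAD2, YAP1 and LATS1 also overlap genes on the opposite strand, of which CD37, beside TEAD2, had at most 2.27 CPM.

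LATS1 (9113, chr6:149658153-149718256, minus strand) was 35.0, 30.8 and 31.6 CPM in U87MG-control and 30.2, 35.2 and 29.2 CPM in U87MG-LMO2. The groups overlapped and the log2 fold change was -0.04 (95% interval -0.32 to 0.23). LATS2 (26524, chr13:20973032-21061547, minus strand), which is both a Hippo kinase and a known target of YAP-TEAD, was 37.0, 34.3 and 37.2 CPM in U87MG-control and 39.5, 43.6 and 41.6 CPM in U87MG-LMO2. The groups did not overlap, and the log2 fold change was 0.20 (95% interval -0.03 to 0.43). The ratio of LATS2 to LATS1 in FPKM was 0.725, 0.775 and 0.737 in U87MG-control and 0.884, 0.850 and 0.902 in U87MG-LMO2, with no overlap and no test.

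Across the 9 genes besides VGLL3, log2 fold changes ran from -0.37 for WWTR1 to 0.35 for TEAD3, with 3 above 0 and 6 below 0. Their edgeR adjusted p values ran from 0.111 to 0.848. A p above the threshold does not show that a gene was unaffected: the 95% intervals of these genes together reached from a 0.604-fold to a 1.55-fold level, so larger changes than these, such as that of VGLL3, lie outside all of them. At an unadjusted p under 0.05, 2 of the 10 genes were higher (VGLL3 and TEAD3) and 1 was lower (WWTR1). Of all tested genes, 13.8% were higher and 11.9% were lower at that unadjusted threshold. Neither DESeq2 nor limma on FPKM called any of the 10 lower. Over the 14 alternatives the 9 genes stayed between -0.46 and 0.44, and their lowest adjusted p was 0.0904, for WWTR1 without U87MG-LMO2 replicate 3. CPM did not overlap between the groups for 6 of the 10 genes (VGLL3, VGLL4, TEAD3, YAP1, WWTR1 and LATS2) and for 34.1% of all tested genes. The median log2 fold change was -0.05 over the 10 genes and -0.01 over all genes tested.

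**Figure D3:**
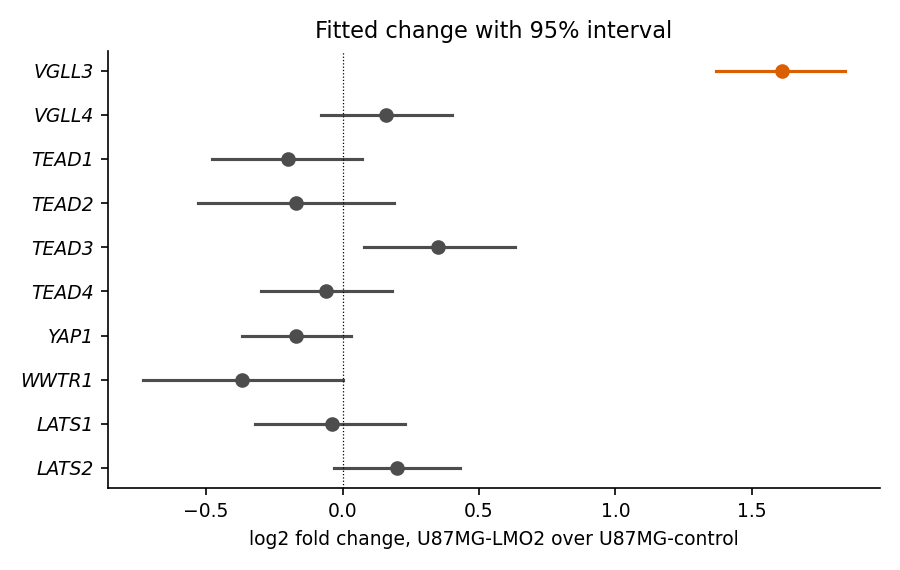
Fitted log2 fold change of U87MG-LMO2 over U87MG-control for each of the 10 genes (points) with its 95% interval (lines), on a log2 axis with 0 dotted. The interval of VGLL3, 1.37 to 1.84, lies to the right of the intervals of the other genes, which all fall between -0.73 and 0.63.

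Between genes, levels were compared in FPKM. In U87MG-control the order of the means was TEAD1 (21.9 FPKM), TEAD4 (20.0), YAP1 (19.4), VGLL4 (16.4), WWTR1 (11.9), TEAD2 (10.5), TEAD3 (9.92), LATS1 (8.73), LATS2 (6.50) and VGLL3 (4.06). The libraries of neighbours overlapped from TEAD1 to YAP1 and from WWTR1 to LATS1, and VGLL3 was below LATS2 in every control library. In U87MG-LMO2, VGLL3 at 14.2 ± 1.73 FPKM (SD, n = 3) was the fifth in order, below YAP1 (16.8) and above TEAD3 (12.3) with no overlap with either. The genes above YAP1 were TEAD4 (18.8), TEAD1 (18.5) and VGLL4 (17.8), which overlapped. Those below TEAD3 were TEAD2 (9.26), WWTR1 (8.90), LATS1 (8.31) and LATS2 (7.29), which overlapped as well.

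VGLL3 was also set against the TEAD genes, whose products it binds, and against the coactivators YAP1 and WWTR1. VGLL3 over the TEAD sum in FPKM was 0.0559, 0.0712 and 0.0698 in U87MG-control and 0.210, 0.225 and 0.293 in U87MG-LMO2. VGLL3 over the sum of YAP1 and WWTR1 was 0.111, 0.143 and 0.138 in U87MG-control and 0.503, 0.528 and 0.625 in U87MG-LMO2. In both groups VGLL3 mRNA remained below the summed coactivators. These are ratios of mRNA levels and say nothing of protein.

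**Figure D4:**
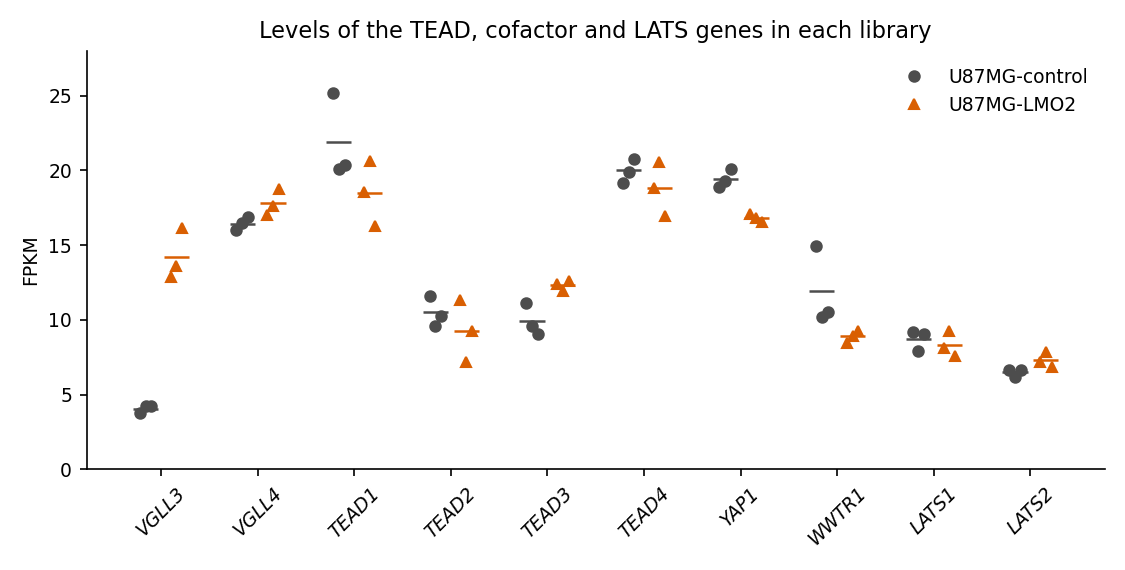
FPKM of the 10 genes in each U87MG-control library (circles) and each U87MG-LMO2 library (triangles) on an axis from 0, with short lines at the group means. VGLL3 is the lowest gene in the control libraries (3.75 to 4.22 FPKM) and lies between TEAD3 and YAP1 in the U87MG-LMO2 libraries (12.85 to 16.15 FPKM).

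The rest of the Hippo pathway was described with a list of 83 genes, of which 75 were tested: 6 were called higher, 5 were called lower and 64 were not called. That is 14.7% called, against 7.48% of all tested genes, with a median log2 fold change of -0.10. The list was chosen with earlier results of these data known, so the share is a description. Of the genes called with all 6 libraries, AMOTL2 alone was called in all 14 alternatives. Without any 1 control library, or without U87MG-LMO2 replicate 1, 1 gene was called higher and none lower, where those fits had fewer samples. The fitted changes of several genes moved little over the alternatives: MAP4K4 stayed between -0.64 and -0.51, PARD3 between -0.66 and -0.54 and AMOTL1 between -0.44 and -0.35.

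The kinases and their adaptors include the MST and MAP4K kinases and the adaptors SAV1 and MOB1. Of 16 tested, 0 were called higher and 2 lower, 12.5% against 7.48% of all tested genes. TNIK, a MAP4K-family kinase, was 44.9, 37.5 and 34.2 CPM in U87MG-control and 16.2, 15.3 and 23.4 CPM in U87MG-LMO2. The groups were well separated, with a log2 fold change of -1.08 (SE 0.18, edgeR adjusted p = 0.0145). MAP4K4, which like other MAP4K kinases can phosphorylate LATS, fell by 0.59 on the log2 scale (SE 0.11, edgeR adjusted p = 0.0184). TNIK and MAP4K4 were each called in 10 of the 14 alternatives. The core cascade genes STK3, STK4, SAV1, MOB1A and MOB1B were not called, with log2 fold changes from -0.49 (STK3) to -0.09 (SAV1). STK3 was lowest in U87MG-LMO2 replicate 3, at 6.27 CPM, while replicates 1 and 2 held 11.3 and 10.9 CPM. DESeq2 and limma on log2(FPKM + 1) also called 0 genes of this list higher, and 3 and 2 lower. At an unadjusted p under 0.05, 1 was higher and 5 were lower, where 13.8% and 11.9% of all tested genes were.

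Of the 27 tested upstream genes, 4 were called higher and 2 lower, 22.2% against 7.48% of all tested genes. AMOTL2, an angiomotin-family scaffold that binds YAP, was 51.9, 71.8 and 68.6 CPM in U87MG-control and 127.1, 155.5 and 126.1 CPM in U87MG-LMO2. All U87MG-LMO2 libraries were far above the controls, with a log2 fold change of 1.09 (SE 0.15, edgeR adjusted p = 0.00728). Its relative AMOTL1 went the other way, from 78.7, 80.0 and 85.3 to 60.4, 60.1 and 62.4 CPM (log2 fold change -0.42, edgeR adjusted p = 0.0312), and the third member, AMOT, had no value in any library. RASSF1, a scaffold that binds MST kinases, rose by 0.76 on the log2 scale (edgeR adjusted p = 0.0154). The polarity gene PARD3 fell by 0.62 (edgeR adjusted p = 0.0143). The cadherins DCHS1 and DCHS2, ligands of FAT cadherins, rose by 1.00 and 1.46 (edgeR adjusted p of 0.0263 and 0.0417). However, DCHS2 was at most 1.27 CPM in any library and was called in 2 of the 13 alternatives that tested it. Of the 14 alternatives, PARD3 was called in 10, RASSF1 in 9, DCHS1 in 7 and AMOTL1 in 6.

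Of the 18 genes of the STRIPAK and LIM list, 2 were called higher and 1 lower, 16.7% against 7.48% of all tested genes. These 18 genes encode subunits of the STRIPAK phosphatase complex, which opposes MST, and LIM proteins that bind LATS. STRIP2 was 146.3, 130.6 and 136.9 CPM in U87MG-control and 72.9, 71.3 and 97.7 CPM in U87MG-LMO2. It was lower in every U87MG-LMO2 library than in every control, with a log2 fold change of -0.77 (SE 0.14, edgeR adjusted p = 0.0168). STRN4, another STRIPAK subunit, rose by 0.37 (edgeR adjusted p = 0.0429), and the LIM protein gene AJUBA rose by 0.72 (edgeR adjusted p = 0.0291). Of the 14 alternatives, STRIP2 was called in 10, AJUBA in 7 and STRN4 in 4. Neither the 9 tested genes of YAP retention and turnover nor the 5 tested TEAD cofactors besides the members held a call in the main edgeR test. At an unadjusted p under 0.05, 1 of the 9 was higher and 4 were lower, and 0 of the 5 were higher and 1 was lower, to be read against the same 13.8% and 11.9%. DESeq2 called 0 of the 9 and 1 of the 5, which was lower, and limma on log2(FPKM + 1) called 0 of either. Over all 14 alternatives together there was 1 call among the 9 and 2 among the 5.

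Of 20 tested YAP-TEAD targets, 9 were called higher and 1 lower, 50.0% against 7.48% of all tested genes, with a median log2 fold change of 0.46. Without LATS2, AMOTL2 and PTPN14, which are members or Hippo genes described above, 8 of 17 were called higher and 1 lower. This list was chosen with earlier results of these data known, so the shares are descriptions. The leading calls among the 20 were CCN2 (1.75, SE 0.24), IGFBP3 (1.61, SE 0.39), CCN1 (1.52, SE 0.17) and AMOTL2. The lower gene was NT5E (-1.03, SE 0.11). CCN1, AMOTL2 and NT5E were called in all 14 alternatives and CCN2 in 13, but IGFBP3 in 6, with 49.9, 74.8 and 20.3 CPM in U87MG-LMO2 against 15.5 to 16.2 CPM in U87MG-control. The number called higher was 5 with limma, 4 without U87MG-LMO2 replicate 1, 3 without U87MG-control replicate 1 and 4 without either of the other controls.

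**Figure D5:**
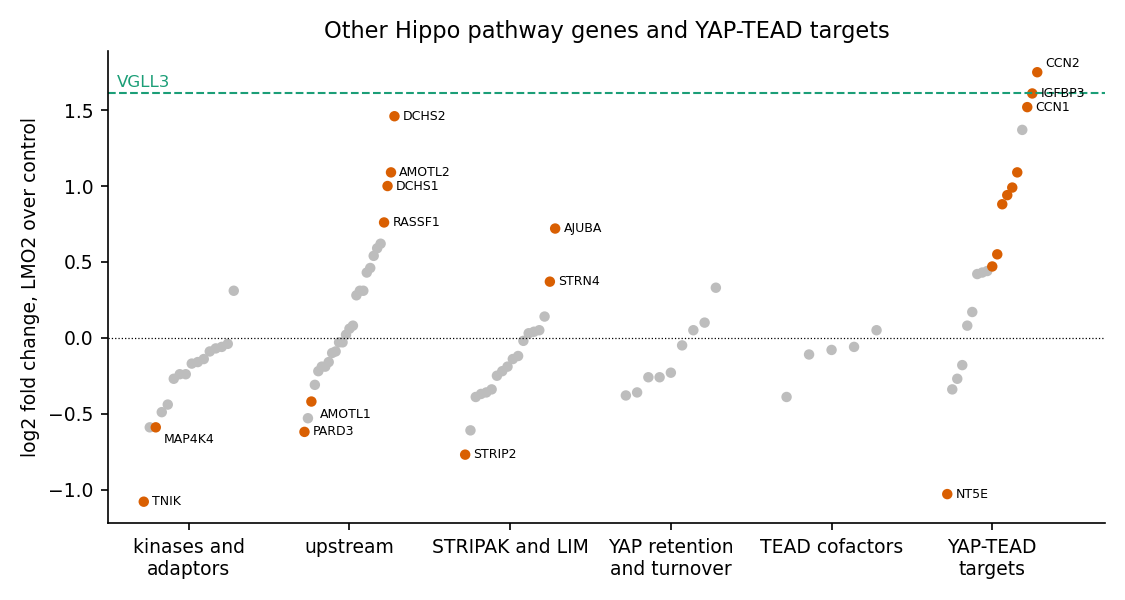
Log2 fold change of U87MG-LMO2 over U87MG-control for each tested gene of the kinase and adaptor, upstream, STRIPAK and LIM, YAP retention and turnover, and TEAD cofactor lists and of the YAP-TEAD targets, ordered by value within a list, without the 10 genes. Called genes are orange, the rest grey, and the dashed line marks VGLL3 at 1.61, which lies above all genes but CCN2 and level with IGFBP3; AMOTL2 and PTPN14 appear in 2 lists.

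The promoters of VGLL3 and of the TEAD target CCN2 were set side by side, because CCN2 is a classic target whose promoter is known to bind TEAD and had the highest fitted change of the listed targets. The motif searched, on both strands, was the 6-base TEAD motif CATTCC, which reads GGAATG on the other strand. The sequences are the 250 bases before each gene's start from RefSeq (GRCh38.p14), on the gene's own strand, at chr3:86991150-86991399 (minus strand) for VGLL3 and chr6:131951373-131951622 (minus strand) for CCN2, with motif matches in capitals.
VGLL3: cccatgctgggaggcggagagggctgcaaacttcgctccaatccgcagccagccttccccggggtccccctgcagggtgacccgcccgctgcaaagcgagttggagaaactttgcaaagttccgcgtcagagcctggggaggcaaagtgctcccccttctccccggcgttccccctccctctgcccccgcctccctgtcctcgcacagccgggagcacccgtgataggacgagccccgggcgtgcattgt
CCN2: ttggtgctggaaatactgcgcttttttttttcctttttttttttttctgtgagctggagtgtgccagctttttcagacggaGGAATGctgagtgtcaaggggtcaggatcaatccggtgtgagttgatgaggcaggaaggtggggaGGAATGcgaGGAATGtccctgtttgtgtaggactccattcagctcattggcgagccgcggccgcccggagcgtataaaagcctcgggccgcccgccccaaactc
CCN2 had 3 matches, whose first bases lay 169, 104 and 95 bases before the start, and VGLL3 had none. Of all 27305 promoters of that length, 11.9% held at least 1 match. Among the members, 8 had an entry and 1 of them, YAP1, held a match. The windows of VGLL4, WWTR1 and LATS1 lie inside the loci given above, so starts farther out in these loci were not searched. Among the targets other than CCN2, 5 of the 14 with an entry did. A match is a description of letters and not of binding, and the lack of one says only that these letters are not in this window.

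The genes whose CPM ran most like that of VGLL3 over the 6 libraries were IGFBP4 (r = 0.9962), EMD (0.9958), PCBP3 (0.9950) and SPOCK1 (0.9947), by Pearson's r on log2 CPM. The r values are descriptions over 6 libraries that fall into 2 groups, so any gene with a clear and even difference between the groups scores high: of 11409 genes compared, 318 had an r of 0.95 or more. Among the other members, r with VGLL3 ran from -0.88 for YAP1 to 0.89 for LATS2, and none reached 0.95. SPOCK1, which encodes a secreted proteoglycan, was 31.9, 32.5 and 29.5 CPM in U87MG-control and 76.8, 81.3 and 80.1 CPM in U87MG-LMO2. IGFBP4, which encodes an insulin-like growth factor binding protein, had a larger step between the groups, from 3.56, 2.99 and 3.56 to 42.1, 55.4 and 44.1 CPM. EMD, which encodes the nuclear envelope protein emerin, had a smaller one, at a log2 fold change of 0.41 (SE 0.09).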

How the data were processed

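Total RNA of 3 U87MG-control and 3 U87MG-LMO2 libraries was sequenced by a service company. The authors deposited, per gene and library, expected counts (estimated, not normalized) and FPKM values (scaled to gene length and mapped reads), with a length. The submitters' processing notes name Bowtie2, BWA and GRCh38.p12; the layout is that of RSEM. The authors' comparison table holds group means, log2 ratios and a probability, and only its means were used, to check the libraries. The table of U87MG-LMO2 replicate 3 had damaged lines: 132 of 27257 genes differed from the authors' mean (tolerance 0.001 FPKM) and were left out, GFAP among them and no member. Gene symbols came from RefSeq (GRCh38.p14) and matched 89.6% of genes; promoters and overlaps used RefSeq and GENCODE v29.

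Expected counts were rounded and tested with edgeR 4.0.16 in R 4.3.3 (filterByExpr, TMM, glmQLFit and glmQLFTest, 2-sided, no block), with Benjamini-Hochberg adjustment over 16092 genes and calls at an adjusted p under 0.05. Intervals rest on the spread between libraries. CPM used TMM library sizes. The edgeR test was also run on simulated counts, and no result here rests on that run. Alternatives were upper-quartile normalization, DESeq2 1.42.0, testing without a filter, at least 10 counts in every library, limma 3.58.1 on log2(FPKM + 1) and log2(FPKM + 0.1), a replicate block, leaving out each library, and a GC-content correction (lowess, span 0.3; GC known for 89.8% of tested genes) that was chosen after seeing the data. The genes named were the 10 members, all called Hippo genes, up to 4 called targets and the 5 genes most like VGLL3 with a mean of at least 5 CPM, of which 1 is not reported here; NT5E was named after its value was seen. Members and lists were chosen with earlier results of these data known.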

Additional observations from a re-analysis of the deposited data

How the results depend on the processing

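VGLL3 was called higher and no member was called lower in all 14 alternatives, and the log2 fold changes of the 9 other members stayed uncalled. For VGLL3 these fits reuse the libraries that selected it. Results near 0 changed sign: VGLL4 was -0.0088 and LATS1 0.12 after the GC-content correction, and LATS1 was 0.012 without U87MG-control replicate 1 and 0.010 without U87MG-LMO2 replicate 3, in a range of -0.13 to 0.012 over the fits that left out 1 library. The Hippo genes called higher, 6 with all libraries, were 2 with limma on either FPKM scale and 3 with the replicate block, and 1 to 8 across the fits that left out 1 library. Those called lower, 5 with all libraries, were 0 to 7 across those fits, the lowest without any 1 control library or U87MG-LMO2 replicate 1. The targets called higher, 9 with all libraries, were 5 with limma on either scale, 6 with the replicate block and 3 to 10 across the fits that left out 1 library. All fits that left out 1 library had fewer samples. Their counts were below those with all libraries except without U87MG-LMO2 replicate 3, where they were above them. The cause was not tested. Same-numbered libraries deviated from their group means with correlations of -0.12, -0.00 and -0.04, which does not pair them, and no member changed its call under the replicate block. The deeper U87MG-LMO2 libraries cannot be told apart from the groups. Low counts limit DCHS2 and the VGLL1 and VGLL2 values.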
